A study of Mus musculus with 8 samples.

Results

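The CDK inhibitors and the pocket proteins that act downstream of them were examined in common myeloid progenitors (CMPs) of young and old mice. All non-control probes carrying the name of 1 of 10 genes were taken, which gave 16 of the 55681 probes and 10 of the 34797 gene names on the array. The genes were the CIP/KIP inhibitors Cdkn1a, Cdkn1b and Cdkn1c, the INK4 inhibitors Cdkn2a, Cdkn2b, Cdkn2c and Cdkn2d, and the pocket proteins Rb1, Rbl1 and Rbl2. CMPs were sorted from bone marrow as lineage-negative, c-Kit+, Sca-1-, CD34+ cells with low Fc gamma receptor. All mice were wildtype, untreated C57BL/6J animals. The sample labels give an age of 2 to 3 months for the young and 22 to 24 months for the old mice, and the design text of the series 3 to 4 and 22 to 26 months. There were 4 young arrays, replicates 3 to 6, and 4 old arrays, replicates 2 to 5. The methods describe 3 mice of each age, fewer than the 4 arrays labelled for it, and the labels do not tie arrays to animals. Every n therefore counts arrays, and p-values measure the spread between arrays, part of which may be technical. In sorted bulk RNA, fewer cells of a type and less RNA per cell cannot be told apart.

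Progress through the cell cycle depends on cyclins bound to cyclin-dependent kinases (CDKs), which phosphorylate the pocket proteins and thereby free E2F transcription factors to switch on genes of DNA replication. INK4 proteins bind CDK4 and CDK6 and keep D-type cyclins from activating them, and CIP/KIP proteins bind assembled cyclin-CDK complexes. In blood formation these inhibitors are known for holding stem cells in quiescence, and Cdkn2a, which encodes p16 and, from a separate first exon, the p53 activator p19Arf, is widely used as a marker of senescence and ageing.

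Promoter windows, the 250 bases before each RefSeq start site on build GRCm38.p6, were found for 8 of the 10 genes, 11 windows in all. Cdkn1c and Rb1 had no entry. Cdkn1a has 2 windows because the locus has an upstream and a downstream start. Both are shown because the array carries a probe annotated to the transcript of each. The positions of these probes within the transcripts were not examined, so the brightest Cdkn1a probe may read transcripts of both starts. Cdkn2c also has 2 windows. The first is shown because Cdkn2c had the largest fold difference among the members, and the other held no match of any motif searched. The Rbl1 window is shown because Rbl1 is the pocket protein whose window held an E2F match.

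Cdkn1a upstream start, chr17:29090729-29090978, plus strand: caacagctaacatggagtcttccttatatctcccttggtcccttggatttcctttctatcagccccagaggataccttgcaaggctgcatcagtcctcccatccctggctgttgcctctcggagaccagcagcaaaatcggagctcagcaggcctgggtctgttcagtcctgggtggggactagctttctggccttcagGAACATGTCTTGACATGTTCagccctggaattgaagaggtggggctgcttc
Cdkn1a downstream start, chr17:29093519-29093768, plus strand: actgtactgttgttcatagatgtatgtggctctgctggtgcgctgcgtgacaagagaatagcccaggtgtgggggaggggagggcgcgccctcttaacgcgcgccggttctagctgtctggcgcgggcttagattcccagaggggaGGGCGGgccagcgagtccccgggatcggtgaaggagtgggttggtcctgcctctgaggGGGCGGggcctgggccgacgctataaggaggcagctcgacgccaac
Cdkn2c, chr4:109666757-109667006, minus strand: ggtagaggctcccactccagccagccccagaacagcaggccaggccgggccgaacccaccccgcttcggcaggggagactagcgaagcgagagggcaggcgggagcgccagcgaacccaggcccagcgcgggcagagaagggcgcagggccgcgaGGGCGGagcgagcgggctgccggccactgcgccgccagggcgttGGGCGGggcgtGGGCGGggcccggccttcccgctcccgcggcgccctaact
Rbl1, chr2:157204535-157204784, minus strand: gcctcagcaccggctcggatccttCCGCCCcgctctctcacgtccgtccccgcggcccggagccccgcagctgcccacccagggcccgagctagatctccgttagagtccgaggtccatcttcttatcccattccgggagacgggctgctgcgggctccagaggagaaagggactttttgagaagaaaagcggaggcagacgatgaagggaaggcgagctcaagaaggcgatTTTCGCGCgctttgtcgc

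Capitals mark a p53 site in the upstream Cdkn1a window, GC boxes in the downstream Cdkn1a and Cdkn2c windows, and a GC box followed by an E2F site in the Rbl1 window. Both strands were searched for E2F sites (TTTCCCGC, TTTCGCGC, TTTGCCGC or TTTGGCGC), for the GC box GGGCGG and for the TATA box TATAAA. Of 32851 windows of this length, 1.86% held an E2F site, 32.7% a GC box and 12.4% a TATA box. The p53 motif was first searched as a pair of exact half-sites with a spacer of 0 to 13 bases, which 21 windows held (0.0639%), among them the upstream Cdkn1a window with a spacer of 12 bases. A search for adjoining half-sites with 1 mismatch allowed in 20 bases was added after that output was seen, and it matched 25 windows (0.0761%). The capitals in the upstream Cdkn1a window show this added match, 51 to 32 bases before the start, which overlaps the exact pair at 73 to 42 bases. The E2F match of Rbl1 lay 18 to 11 bases before the start, and the first of the 2 Cdkn2a windows held another, TTTCCCGC, 99 to 92 bases before its start. GC boxes were found 3 times in the Cdkn2c window shown and 3 times in that of Cdkn2d. The first Cdkn2a window held 2 and that of Cdkn1b 1, besides those marked in the Cdkn1a and Rbl1 windows. No window of a member held the TATA box. These are matches of letters, and binding was not measured.

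Signals are given as log2 of the spot intensity over the 75th percentile of the same array, so that 0 is the level of that percentile. Between 55.65% and 63.16% of probes were well above background on an array, and no spot was saturated. Arrays correlated with each other at 0.967 to 0.9915 over the probes above background on 4 or more of the 8 arrays. Each of the 2 slides carried 2 arrays of each age. Probes above background on 4 or more of the 8 arrays entered the test, and a probe was called at an adjusted p under 0.05 (limma, Benjamini-Hochberg over all tested probes) with at least a 1.5-fold change. Of 33472 tested probes 64 were called, 53 higher and 11 lower in old CMPs.

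No member was called between the ages. Of the 16 probes 12 were tested, covering 8 genes, and 0 of these 12 passed, beside 0.191% of all tested probes. At an unadjusted p under 0.05 by limma, 3 of the 12 passed, those of Cdkn1c, Cdkn2c and Cdkn2d, all higher in old CMPs, beside 6.34% of all tested probes in either direction. Of the 12 probes 10 had a higher mean in old CMPs and 2 a lower one. With each gene at its brightest probe, the median log2 fold change of the 8 genes was 0.14, beside -0.01 over all tested genes. Over all tested probes the median was -0.02. Cdkn2a and Cdkn2b were near background and had no tested probe.

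**Figure D1:**
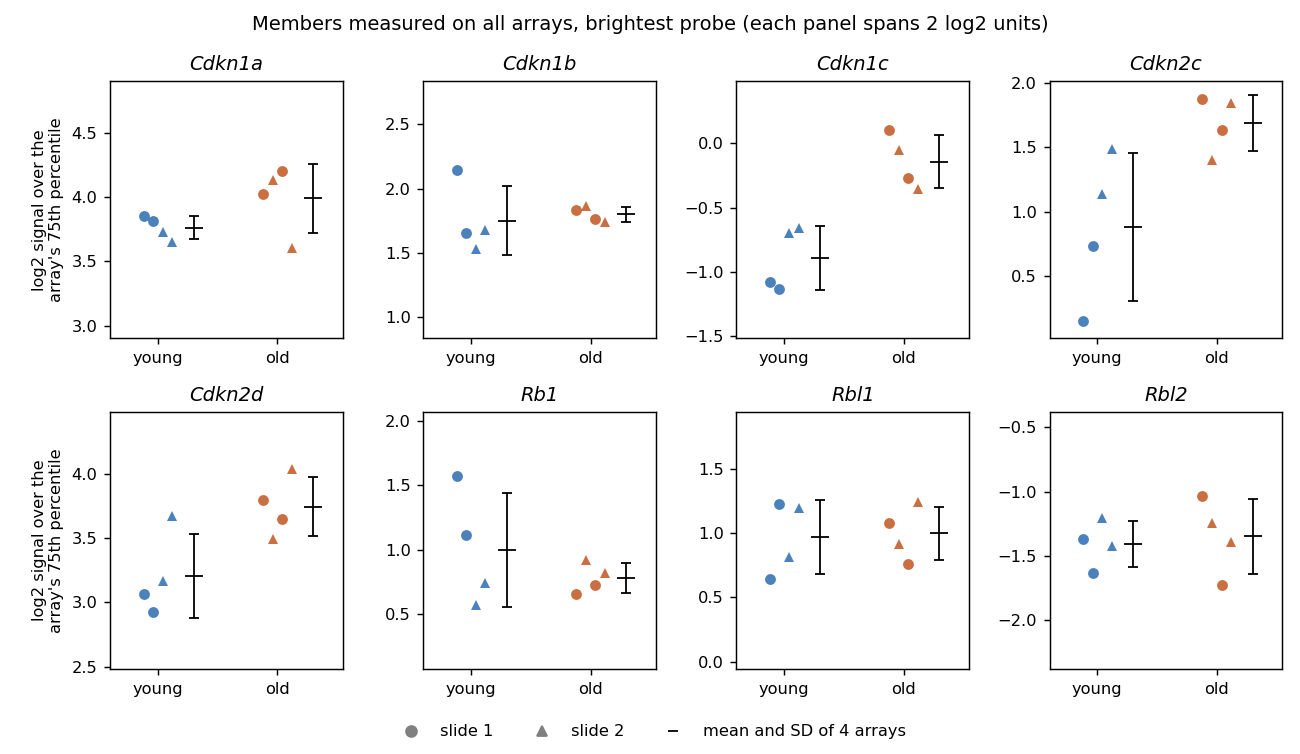
Signal of the 8 tested genes on each array (y axis, log2 over the array's 75th percentile; x axis, age), with circles for slide 1, triangles for slide 2 and bars for the mean and SD of 4 arrays. Among the 8 genes, the young and old arrays of Cdkn1c do not overlap and those of the other genes do.

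Among the CIP/KIP inhibitors, Cdkn1c, which encodes p57 and is an imprinted gene known for its part in stem cell quiescence, differed most. Its probe (A_51_P339540, mm9 chr7:150644753-150644812, minus strand) read -1.08, -1.14, -0.70 and -0.66 on young replicates 3 to 6. On old replicates 2 to 5 it read 0.10, -0.05, -0.27 and -0.35. The lowest old array exceeded the highest young array, and Cdkn1c was the only 1 of the 12 tested member probes without overlap, beside 4.44% of all tested probes in either direction and 2.87% with old higher. Young CMPs averaged -0.89 ± 0.25 (SD, n = 4) and old CMPs -0.14 ± 0.21 (SD, n = 4), a log2 fold change of 0.75 with a standard error of 0.20, or 1.68-fold. The 95% interval ran from 0.31 to 1.19, the unadjusted p was 0.00343 and the adjusted p was 0.255 (limma), so the difference did not pass over all probes. The exact two-sided permutation test gave p = 0.0286, the smallest value that 4 against 4 arrays allow. Within slides the log2 difference was 1.03 on slide 1 and 0.47 on slide 2, and it stayed between 0.67 and 0.83 when any 1 array was left out. With array weights it was 0.75 (adjusted p 0.0779, limma) and with normexp background correction 0.55 (adjusted p 0.466, limma).

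Cdkn1a encodes p21, the inhibitor best known as a target of p53. Its brightest probe (A_51_P363947, chr17:29237377-29237436 on mm9, plus strand) is printed in 10 spots, whose SD within an array was 0.0342 to 0.102. It read 3.85, 3.81, 3.73 and 3.65 on the young arrays and 4.02, 4.13, 4.20 and 3.60 on the old arrays. Of the old arrays 3 lay above all young arrays and old replicate 5 lay below them. The log2 fold change was 0.23 with a 95% interval of -0.19 to 0.64 and an adjusted p of 0.998 (limma), an interval that holds both no difference and a 1.5-fold rise. The probe for the transcript of the upstream start, whose window carries the p53 match printed above (A_55_P1986282, mm9 chr17:29227986-29228045), gave 0.11 with an interval of -0.57 to 0.80. A further probe (A_55_P1976204) gave 0.19 with an interval of -0.58 to 0.97. All 3 probes of Cdkn1a thus had intervals that span 0.

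Cdkn1b encodes p27, which restrains cell cycle entry in many resting cells. The brighter of its 2 probes read between 1.53 and 2.14 on the young and between 1.74 and 1.86 on the old arrays, and the old range lay within the young range. The log2 fold change was 0.05 (95% interval -0.36 to 0.46). The dimmer probe gave 0.14 with the wider interval of -0.83 to 1.104.

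Of the INK4 inhibitors, Cdkn2c and Cdkn2d were well above background on every array. Cdkn2c encodes p18, known as a brake on stem cell self-renewal. Its probe (A_55_P2074796, mm9 chr4:109333508-109333567, minus strand) read 0.15, 0.74, 1.14 and 1.49 on the young arrays and 1.88, 1.40, 1.64 and 1.84 on the old arrays. The young arrays were widely spread, with replicate 3 lowest, and young replicate 6 reached above old replicate 3. Young CMPs averaged 0.88 ± 0.57 (SD, n = 4) and old CMPs 1.69 ± 0.22 (SD, n = 4), a log2 fold change of 0.81 or 1.75-fold. The 95% interval was 0.18 to 1.44, the unadjusted p 0.0172 and the adjusted p 0.528 (limma), and the exact permutation test gave 0.0571. Within slides the difference was 1.31 on slide 1 and 0.31 on slide 2, and across leave-one-out fits it ranged from 0.57 to 1.01. With array weights it was 0.46 (adjusted p 0.442, limma) and with normexp background correction 0.84 (adjusted p 0.157, limma).

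Cdkn2d encodes p19Ink4d, a protein distinct from p19Arf. Its probe (A_55_P2022251, mm9 chr9:21092934-21092993, minus strand) read 3.06, 2.93, 3.16 and 3.67 on the young arrays and 3.80, 3.49, 3.65 and 4.03 on the old arrays. Young replicate 6 lay among the old arrays, and the other young arrays lay below all of them. The log2 fold change was 0.54, or 1.45-fold, with a 95% interval of 0.06 to 1.02, an unadjusted p of 0.0324 and an adjusted p of 0.678 (limma). The exact permutation test gave 0.0857, and the difference was 0.73 on slide 1, 0.34 on slide 2 and 0.27 with array weights. For Cdkn1c, Cdkn2c and Cdkn2d alike, the difference on slide 1 was the larger, and a difference between slides was not tested.

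**Figure D2:**
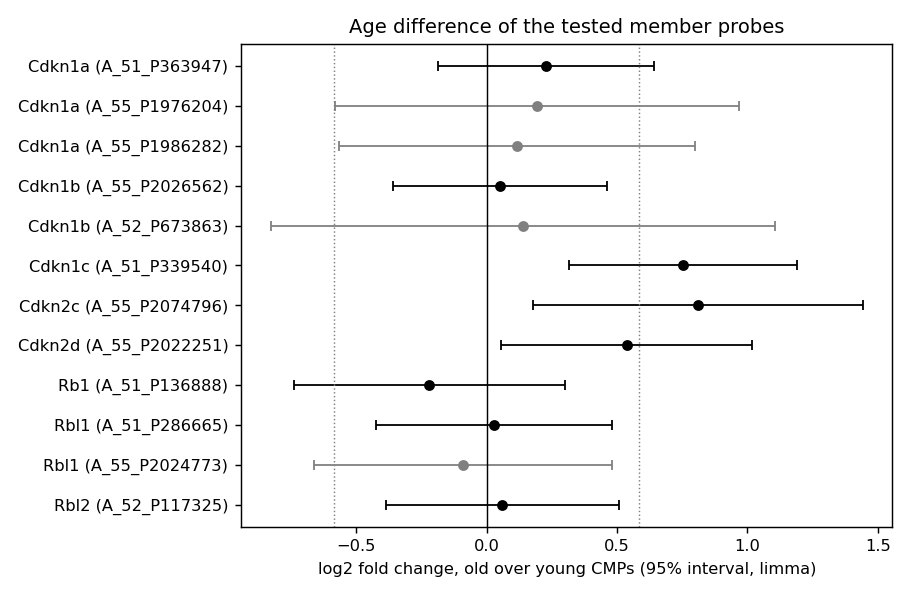
Log2 fold change of old over young CMPs (x axis) with its 95% interval from limma for the 12 tested member probes (y axis), with the brightest probe of a gene in black and the others in gray, and dotted lines at a 1.5-fold change. The intervals of Cdkn1c, Cdkn2c and Cdkn2d lie above 0 and the other 9 span it.

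Cdkn2a and Cdkn2b lie side by side on chromosome 4. Both Cdkn2a probes (A_55_P2008437, mm9 chr4:88920405-88920464, and A_55_P2008438, chr4:88920543-88920602, minus strand) are assigned to transcripts of p16 and of p19Arf, so they do not separate the products. The first was well above background on 1 array, young replicate 4, at -4.04, and on no old array. The second was well above background on 0 of the 8 arrays. Cdkn2b encodes p15, a further inhibitor of CDK4 and CDK6. Its probe A_55_P1988183 (mm9 chr4:88952276-88952335, minus strand) was well above background on 0 young and 3 old arrays, at -4.75, -4.38 and -4.59 on old replicates 2, 3 and 5, whereas old replicate 4 read -6.74. Its other probe, A_55_P1979526, was well above background only on young replicate 6, at -2.74. The 2 Cdkn2b probes therefore differed in which age had detected arrays. As a bound, the arrays of the dimmer age were raised to the lowest signal measured well above background on each, while the arrays of the other age kept their measured values, old replicate 4 of Cdkn2b included. No fold above 1 could then be given for any of the 4 probes. With normexp background correction the bound for the first Cdkn2b probe was at least 1.13-fold, with old higher. The same bound was 0.868 for the other Cdkn2b probe and under 1 for both Cdkn2a probes.

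**Figure D3:**
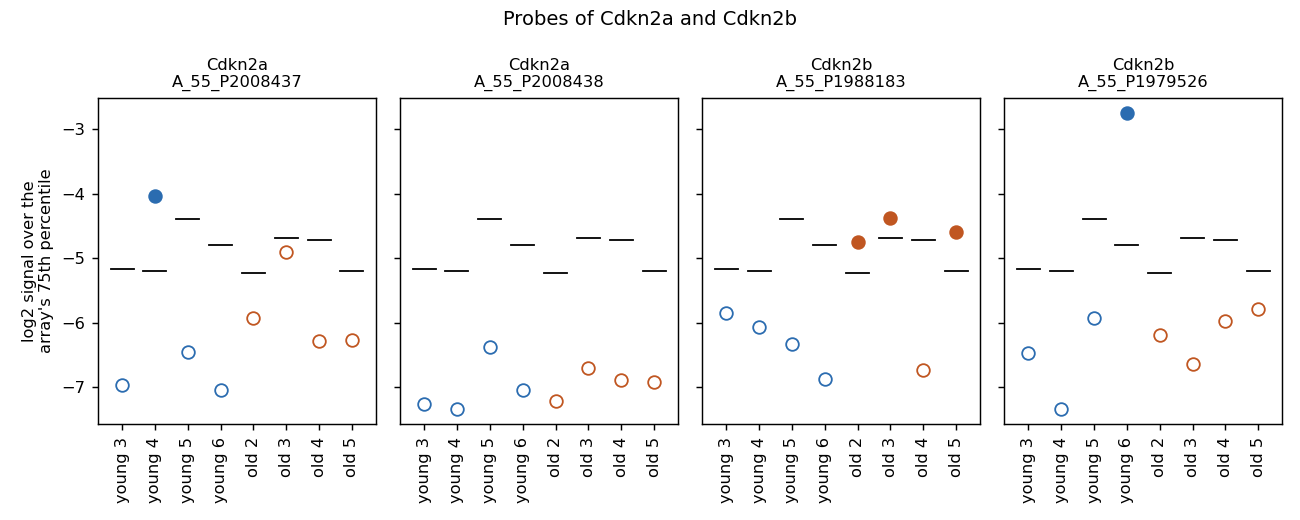
Signal of the 4 probes of Cdkn2a and Cdkn2b (y axis, log2 over the array's 75th percentile) on each array (x axis), filled where well above background, with a black line at the dimmest detected signal of each array. Of 32 readings 5 are filled, 3 of them from 1 Cdkn2b probe on old arrays.

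The pocket proteins differed less than their spread. Rb1, the retinoblastoma protein that binds activating E2Fs, is also printed in 10 spots. It read 1.57, 1.11, 0.57 and 0.74 on the young arrays and 0.65, 0.92, 0.72 and 0.82 on the old arrays. The old arrays lay within the young range, and the log2 fold change was -0.22 (95% interval -0.74 to 0.30, limma). Its sign differed by slide, -0.65 on slide 1 and 0.21 on slide 2. Rbl1 and Rbl2 encode p107 and p130, which repress E2F targets with the MuvB proteins in the DREAM complex. Rbl1 gave 0.03 at its brighter probe (95% interval -0.42 to 0.48) and -0.09 at the other. Rbl2 gave 0.06 (95% interval -0.39 to 0.51).

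Markers of other cell types differed with age in the same sorted cells. The summed signal of 13 of 14 megakaryocyte genes, relative to the 75th percentile, was 85.0 to 177 on young and 255 to 345 on old arrays. This sum follows mainly Pf4 (log2 fold change 1.36, adjusted p 0.130, limma). Of the 14 tested megakaryocyte genes 14 were higher, beside 47.6% of all tested genes. Gp9, a platelet glycoprotein, was called (log2 fold change 1.21, adjusted p 0.0327, limma). That call was lost in each fit without 1 array (lowest adjusted p 0.0738), with slide as a block (0.0631), with no filter on dim probes (0.129), with the replicate block (0.597) and with the methods' t-test adjusted (0.116). HSC markers summed to 15.8 to 23.1 on young and 33.6 to 40.2 on old arrays. This sum follows mainly Pdzk1ip1 (log2 fold change 1.02, adjusted p 0.0945, limma), and of the 7 tested HSC genes 4 were higher and 3 lower. The sum of 10 of 11 granulocyte and monocyte genes was 561 to 788 on young and 456 to 560 on old arrays. The lowest young array (561.5) lay just above the highest old array (560.1), and of the 9 tested genes 8 were lower and 1 higher. The gate genes Kit, Cd34 and Mpo summed to 570 to 778 on young and 453 to 516 on old arrays, which follows mainly Mpo (log2 fold change -0.59), while Cd34 was at -0.21 and Kit at 0.31. Fc gamma receptors summed to 9.93 to 11.5 and 6.68 to 9.27, and genes outside the gate (Ly6a, Il7r, Flt3) to 3.18 to 5.90 and 2.44 to 4.10. Erythroid markers overlapped, 47.0 to 85.5 and 59.98 to 96.7, as did lymphoid markers, 14.2 to 18.0 and 12.7 to 16.0, with Ms4a1 and Rag1 well above background on no array. The megakaryocyte and HSC sums, like the means of Cdkn1c, Cdkn2c and Cdkn2d, were higher on the old arrays. Among the young arrays, replicate 3 had the highest megakaryocyte sum (177), which follows mainly Pf4, and the lowest Cdkn2c signal (0.15). Its HSC sum was 22.3, and it read -1.08 for Cdkn1c and 3.06 for Cdkn2d. Young replicate 4 had the lowest megakaryocyte sum (85.0) and HSC sum (15.8), and the lowest Cdkn1c (-1.14) and Cdkn2d (2.93) signals. Its Cdkn2c signal (0.74) was above that of replicate 3. No relation between the sums and the members was computed. The part of these cell type markers in the age differences of the members was not tested.

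The partners and targets of the members were read from lists of genes, each at its brightest tested probe, and of all 23155 tested gene names 47.6% were higher with age, and their median change was -0.01 on the log2 scale. Of the cyclins and CDKs 15 of 16 were tested and 0 called, with a median of 0.13 and 13 higher. Ccnd1, the cyclin D1 that INK4 proteins keep from CDK4 and CDK6, was at 0.29 and Mnat1, an assembly factor of the CDK-activating kinase, at 0.26. Ccne1, a cyclin of the G1 to S transition, was at -0.31 and its partner Cdk2 at -0.13. None of the 10 E2F and DP factors was called (median 0.01). The activating factors E2f2 and E2f1 were at -0.27 and -0.19, and E2f5 and the atypical repressor E2f8 at 0.18 and 0.14. None of the 7 tested DREAM and MuvB partners was called (median -0.10). The MuvB subunits Lin37, Rbbp4 and Lin9 were at 0.16, 0.07 and -0.15, and the mitotic factor Foxm1 at -0.15.

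Of 20 E2F target genes 0 were called, and 13 were lower and 7 higher in old CMPs, with a median of -0.08. The lowest were Pola1, a subunit of DNA polymerase alpha, at -0.41 and the replication licensing factor Cdt1 at -0.25. The highest were Orc1, of the origin recognition complex, at 0.17 and Mcm2, of the replicative helicase, at 0.10. Of the 12 genes listed for turnover and phosphorylation of CDK inhibitors, an importin among them, 0 were called (median 0.02). The ubiquitin ligase subunit Rbx1 and the importin Kpna2 were at 0.27 and 0.17, and the substrate receptors Dtl and Fbxw7 at -0.21 and -0.17. Of 15 tested regulators of Cdkn transcription 0 were called (median -0.01). Ets1, an activator of Cdkn2a, was at 0.62 (adjusted p 0.747, limma), and Gfi1, a repressor of Cdkn1a, at -0.51 (adjusted p 0.617, limma). The Polycomb proteins Cbx8 and Cbx7, which silence the Cdkn2a locus, were at 0.40 and -0.28.

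The p53 arm, of which Cdkn1a is the best known target among the CDK inhibitors, held no called gene. This covered 10 regulators (median -0.07) and 23 tested targets (median 0.09, 15 higher and 8 lower). Trp53 was at 0.30 and the checkpoint kinase Chek2 at 0.28, and the damage kinases Atr and Atm were at -0.50 and -0.48, with no adjusted p under 0.804 (limma). Among targets, the antiproliferative gene Btg2 was at 0.49 and Trp53i11 at 0.47, while Pmaip1, the proapoptotic Noxa, was at -0.45 and the translesion polymerase Polk at -0.40. Of 7 tested genes beside the Cdkn2a and Cdkn1c loci 0 were called (median 0.19). Cd81, a tetraspanin gene in the region of Cdkn1c, was highest at 0.61 (unadjusted p 0.0356, adjusted p 0.704, limma), and Mtap, next to Cdkn2a, was at 0.45. Kcnq1ot1, the noncoding RNA of the imprinted Cdkn1c domain, was at -0.51 and Phlda2, of the same domain, at -0.04.

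Of 24 senescence-associated genes 15 were tested and 1 was called, the cytokine gene Il6. It read 1.01, 0.98, -0.01 and 0.57 on the young arrays and 2.198, 2.06, 2.37 and 2.41 on the old arrays, which did not overlap. Il6 was the only 1 of the 15 tested genes without overlap (6.67%), beside 4.86% of all tested genes. Its log2 fold change was 1.62, or 3.07-fold, with a 95% interval of 1.07 to 2.17 and an adjusted p of 0.0457 (limma). The call was lost with quantile normalization (adjusted p 0.0579), with no filter on dim probes (0.139), with the methods' t-test adjusted (0.491), with the replicate block (0.449) and in each fit without 1 array (lowest adjusted p 0.0616), while the log2 fold change stayed between 1.40 and 1.75. Ccl2, a chemokine of the same secretory group, was at 1.02 (adjusted p 0.704, limma), with young replicate 3 at -0.67 among the old arrays. The lowest were the chemokine gene Ccl5 and the cytokine gene Tnf, both at -0.30. The median of the list was 0.14, with 10 higher and 5 lower.

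**Figure D4:**
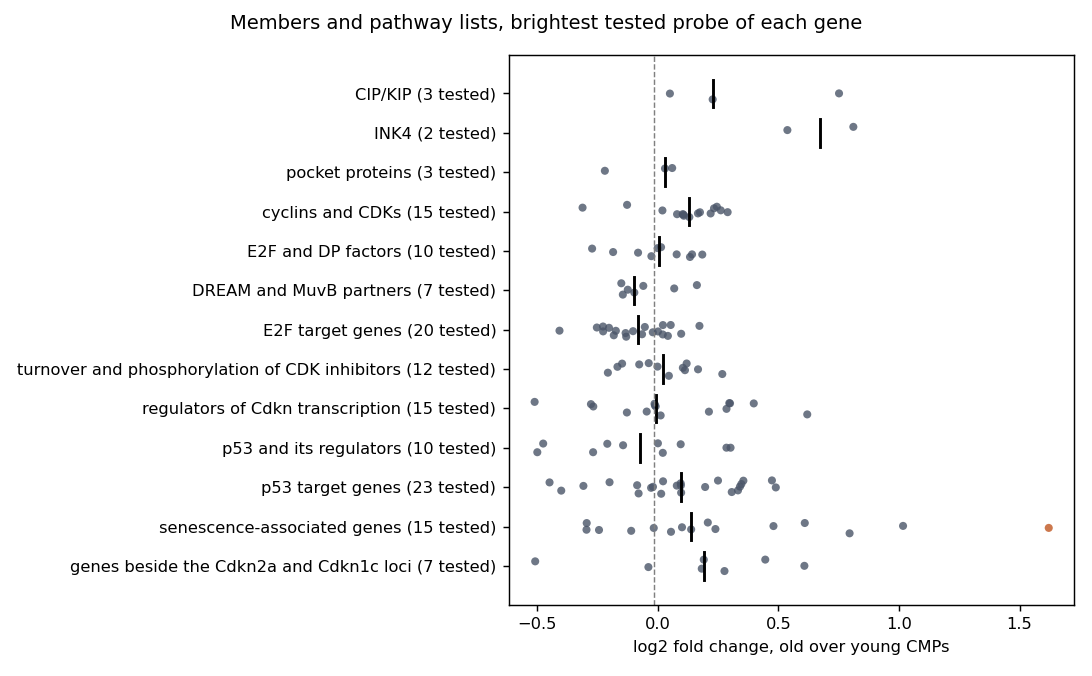
Log2 fold change of old over young CMPs (x axis) for each gene of the members' families and of the pathway lists (y axis), with a black line at the median of each list, a dashed line at the median of all tested genes and the called gene in orange. Il6, at 1.62 in the senescence-associated list, is the called gene among these lists.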

How the data were processed

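RNA (100 ng) of sorted CMPs was labelled with 1 dye by the authors, hybridised to arrays of 62976 spots and read with Feature Extraction 10.7.3.1, a version from the submitters' processing notes. The deposited scanner files give background-corrected spot intensity on a linear scale, with probe coordinates on mm9. A table of normalized log2 values for the whole series was also deposited, made with GeneSpring 13 and used only as an alternative, whose column medians lay between -0.11 and 0.146. Intensities were put on the log2 scale and the 75th percentile of each array was subtracted. Spots marked non-uniform or population outliers were left out (141 to 230 per array), and replicate spots were averaged by probe. Tests used limma 3.58.1 in R 4.3.3 with Benjamini-Hochberg adjustment, and the data.table package, version 1.17.8. Fitting was tested on simulated data. Genes were named by rule: all members, called genes, and the 2 highest and 2 lowest of each pathway list. Pf4, Pdzk1ip1, Kit, Cd34 and Mpo were named after their values were seen. The members and lists were chosen with earlier results of these data known. Alternatives covered background correction, normalization, filters, variance models, the methods' t-test, slide and replicate blocks and leaving out each array. Precision is limited by the number of arrays and by signal over background.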

Additional observations from a re-analysis of the deposited data

Results flagged for a closer look

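Among 32 groups of 4 arrays, formed by the 16 member probes in each age, 2 held an array far from the others, and chance alone gives about 1 in 20. The Cdkn1a probe A_55_P1976204 read -3.00 on old replicate 4, while the other old arrays read -1.57 to -1.80, so the gap of 1.2 took a share of 0.839 of the range. The Cdkn2b probe A_55_P1988183 read -6.74 on old replicate 4, where it was not well above background, and the gap to the next old array was 1.99, a share of 0.846. Both lay on the same array, old replicate 4, and the brightest Cdkn1a probe read 4.20 there, the highest of the old arrays.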

How the results depend on the processing

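No member was called in any fit that adjusted p over all probes, including each fit without 1 array (0 to 0). Without adjustment, limma called 2 members, Cdkn1c and Cdkn2c, and the methods' t-test called 1, Cdkn1c. The number of probes called over the whole array was less stable than the main 64: 104 with normexp, 28 with no filter, 40 with a filter on all 8 arrays, 101 with an intensity trend and robust variances, 302 with array weights, 39 with slide as a block, 27 to 43 without 1 array, 0 with the methods' t-test adjusted, and without adjustment 1051 by that test and 1592 by limma. Each slide held both ages, so slide was not run as a random block. A shift to the median moved the median of all probes from -0.02 to 0.10 and that of the regulators of Cdkn transcription from -0.01 to 0.11. With quantile normalization 0 senescence-associated genes were called. The direction of some members turned, none of them called: Rbl2 was at -0.0093 with normexp, Rbl1 at -0.10 with array weights and -0.0314 as the mean of its probes, and its probe A_55_P2024773 at 0.0258 with the median shift. Within slides, signs differed for Rb1 (-0.65 and 0.21), Rbl1 (-0.0143 and 0.0730; A_55_P2024773, -0.33 and 0.15), Rbl2 (0.12 and -0.000303), Cdkn1a A_55_P1986282 (0.36 and -0.13) and Cdkn1b (-0.0980 and 0.20; A_52_P673863, -0.48 and 0.75). With array weights Cdkn2c was at 0.46 and Cdkn2d at 0.27. Without 1 array, Rbl1 ranged from -0.0786 to 0.11, its probe A_55_P2024773 from -0.30 to 0.0295, Rbl2 from -0.0463 to 0.19, Cdkn1a A_55_P1986282 from -0.16 to 0.27, and the Cdkn1b probes from -0.0236 to 0.18 and from -0.14 to 0.56. The Gp9 call was lost with no filter (adjusted p 0.129), with slide as a block (0.0631), with the t-test adjusted (0.116) and in each fit without 1 array (0.0738 at the lowest). Arrays of both ages shared the replicate numbers 3, 4 and 5, but deviations of same-numbered arrays correlated at -0.0928, -0.141 and 0.148, so the numbers were not taken as pairs. With the replicate block on those 6 arrays 13 probes were called and Rbl2 was at -0.0518, and on the same arrays without the block, an alternative added after seeing the data, 16 were called and Rbl2 was at -0.0518. The causes of these changes were not tested.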
